A study of Mus musculus with 12 samples.

Results

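The p53 family and its direct regulators were examined in sorted mouse osteoblasts. They were taken by gene symbol from the deposited count table as 7 of its 32288 genes, namely *Trp53*, *Trp63* and *Trp73*, which encode the related transcription factors p53, p63 and p73, the p53 inhibitors *Mdm2* and *Mdm4*, the phosphatase gene *Ppm1d*, and *Cdkn2a*, whose 2 products Arf and p16 are counted as 1 entry. RNA from mGFP+ cells of the metaphysis, the bone region next to the growth plate, was sequenced in 12 libraries of 4 groups. Cells had been sorted after removal of CD31, CD45 and TER119 positive cells.

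Every mouse carried *Osx-CreERT2*, a tamoxifen-inducible Cre under the control of the osteoblast gene *Osx* (*Sp7*), and *mTmG*, a reporter that switches from tdTomato to membrane GFP once Cre has acted, and all received tamoxifen. Juvenile (3 weeks of age, n = 4) and adult (8 weeks, n = 4) *Osx*+ osteoblasts came from mice with these alleles alone, and each library pooled 2 male mice. *c-Myc* osteoblasts (n = 2) also carried LSL-tTA and *Col1a1*::TetO–*c-Myc*, so that Cre switches on a *c-Myc* transgene, and were collected 7 days after tamoxifen. *c-Myc* + *R172H* osteoblasts (n = 2) carried in addition *Trp53*-LSL-R172H, a knock-in from which Cre removes a stop cassette so that a dominant-negative p53 is made. The titles call the induced libraries 3-week samples. The dissection text has mice of 5 weeks and a cut at 5 mm in place of 2 mm. It names both sexes for the induced groups, whereas the controls were male. By the methods, mice with the inducible transgene, or pregnant females, drank doxycycline or tetracycline until a set time before analysis. Age, cut, tamoxifen schedule, these drugs and LSL-tTA therefore cannot be told apart from *c-Myc* where an induced group is compared with juvenile osteoblasts.

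p53 is a transcription factor that halts the cell cycle or kills the cell after DNA damage or oncogene activity. Mdm2 is a ubiquitin ligase that marks p53 for degradation, and Mdm4 is its partner, which mainly blocks the transcriptional activity of p53. *Mdm2* and *Ppm1d* are themselves activated by p53, which closes a negative feedback loop, and Ppm1d removes phosphates that DNA damage kinases place on p53. Arf binds Mdm2 and frees p53, whereas p16 inhibits the cyclin D kinases Cdk4 and Cdk6 and acts through the retinoblastoma protein.

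The codon that the *R172H* allele changes is shown first, because the *c-Myc* + *R172H* group is defined by it. *Trp53* lies on the plus strand at chr11:69580359-69591873 (GRCm38). In transcript *Trp53-203*, which has 390 coding codons, the codon named by the allele is an arginine codon in exon 5 at chr11:69588511-69588513, and a G-to-A change in it gives a histidine codon. It is in capitals between 15 bases on either side, 5′ to 3′, from the GENCODE transcript.
*Trp53* codon of R172H: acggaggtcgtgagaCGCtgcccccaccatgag
The counts are per gene, so reads of the mutant and of the normal allele were not separated.

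*Cdkn2a* lies on the minus strand at chr4:89274471-89294653, and its 2 coding transcripts start at different first exons. They share 317 coding bases, of which 0 are read in the same frame. The first 30 coding bases of each are shown to make plain that 1 count covers unrelated proteins, with the start codon in capitals.
p16 (*Cdkn2a-201*): ATGgagtccgctgcagacagactggccagg
Arf (*Cdkn2a-202*): ATGggtcgcaggttcttggtcactgtgagg
The remaining members are *Mdm2* at chr10:117688875-117710758 on the minus strand, *Mdm4* at chr1:132959484-133030561 on the minus strand, *Ppm1d* at chr11:85311244-85347066 on the plus strand, *Trp63* at chr16:25683763-25892102 on the plus strand and *Trp73* at chr4:154056253-154140208 on the minus strand. In this annotation *Trp73* shares 280 exon bases with its antisense gene *Trp73os*, whose reads cannot be told apart where counting ignores strand. No other member shared exon bases with another gene.

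The promoter windows of members in which a motif was found are shown next, to give the place of the motif in each. They are from RefSeq for GRCm38.p6, each from 250 bases before to 50 bases after the start site and 5′ to 3′ on the gene's strand. Capitals mark 3 motifs searched on both strands, of which no matches overlapped in these windows. They are the E-box CACGTG bound by Myc and its partner Max, E2F sites with the letters TTTCCCGC, TTTCGCGC, TTTGCCGC or TTTGGCGC, and the p53 half-site. Among 32851 promoters of the same length, 7.15% held the E-box, 2.26% an E2F site and 8.36% a p53 half-site.
*Trp53* (chr11:69580109-69580408): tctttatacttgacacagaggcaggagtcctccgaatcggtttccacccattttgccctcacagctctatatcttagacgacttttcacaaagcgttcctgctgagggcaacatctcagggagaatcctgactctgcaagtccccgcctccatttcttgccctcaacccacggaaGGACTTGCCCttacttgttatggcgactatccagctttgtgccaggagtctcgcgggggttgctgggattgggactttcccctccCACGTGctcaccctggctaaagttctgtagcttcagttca
*Mdm2* (chr10:117710709-117711008): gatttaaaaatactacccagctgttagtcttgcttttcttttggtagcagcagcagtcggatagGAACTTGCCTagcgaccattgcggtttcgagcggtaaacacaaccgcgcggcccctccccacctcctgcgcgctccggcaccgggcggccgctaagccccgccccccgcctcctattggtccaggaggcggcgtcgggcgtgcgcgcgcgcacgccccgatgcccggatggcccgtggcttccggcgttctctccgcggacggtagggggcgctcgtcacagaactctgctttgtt
*Ppm1d* (chr11:85311004-85311303): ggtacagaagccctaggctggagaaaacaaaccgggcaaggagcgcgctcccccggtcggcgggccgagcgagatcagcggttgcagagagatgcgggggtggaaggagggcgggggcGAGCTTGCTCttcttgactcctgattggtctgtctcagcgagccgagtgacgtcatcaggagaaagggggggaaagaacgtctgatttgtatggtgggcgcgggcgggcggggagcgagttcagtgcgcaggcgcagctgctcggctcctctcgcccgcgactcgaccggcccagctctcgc
*Cdkn2a*, Arf start (chr4:89294570-89294869): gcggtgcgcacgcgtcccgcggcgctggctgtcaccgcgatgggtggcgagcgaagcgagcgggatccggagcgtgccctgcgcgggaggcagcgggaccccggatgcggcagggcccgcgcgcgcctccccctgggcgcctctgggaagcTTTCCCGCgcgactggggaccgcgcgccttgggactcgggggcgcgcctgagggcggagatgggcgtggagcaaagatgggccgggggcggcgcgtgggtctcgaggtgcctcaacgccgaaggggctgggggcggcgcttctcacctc
The *Trp53* window held an E-box 10 bases after the start and a p53 half-site 75 bases before it (position -75), the *Mdm2* and *Ppm1d* windows held a p53 half-site (positions -186 and -132), and the window at the Arf start held an E2F site (position -99). Each p53 match was a lone half-site, a pattern found in 8.36% of all promoters, and binding by p53 was not measured. Sequence outside these windows, such as further into the *Mdm2* gene, was not searched for motifs. The windows at the p16 start, at both *Mdm4* starts and at both *Trp73* starts held none of these letters. Whether motifs in these windows bear on the levels given below was not tested. No window of *Trp63* was used here.

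Total counts were 10256521 to 12648874 in juvenile, 9066154 to 10823288 in adult, 13779052 to 15684412 in *c-Myc* and 12823338 to 13745901 in *c-Myc* + *R172H* libraries. A count of 3, taken as the detection limit, was 0.137 to 0.417 CPM, the read count scaled to library size with TMM factors over all 12 libraries. This limit covers counting error only. All 12 osteoblast markers were above it in every library, but so were all 12 chondrocyte markers. Summed, the osteoblast markers were at 572138 to 841038 CPM in juvenile, 343830 to 619695 in adult, 100189 to 132616 in *c-Myc* and 56686 to 58631 in *c-Myc* + *R172H* osteoblasts, and the chondrocyte markers at 18727 to 36756, 44596 to 141263, 1881 to 2121 and 877 to 1043 CPM. The 12 haematopoietic markers summed to at most 13.5 CPM and the 6 endothelial markers to at most 9.77 CPM in any library. Among called markers with the largest changes, *Bglap* (-3.29 ± 0.35), *Bglap2* (-3.06 ± 0.29), *Col10a1* (-6.33 ± 1.2) and *Col9a2* (-5.87 ± 0.72) were lower and *Lyz2* (4.23 ± 0.74) higher on the log2 scale in *c-Myc* than in juvenile osteoblasts. In *c-Myc* + *R172H* over juvenile osteoblasts they were *Bglap* (-5.19 ± 0.40), *Bglap2* (-4.61 ± 0.33), *Col10a1* (-8.11 ± 1.3), *Matn1* (-7.87 ± 0.86), *Lyz2* (2.95 ± 0.76) and *Vwf* (2.83 ± 0.77), and in juvenile over adult osteoblasts *Spp1* (1.23 ± 0.16), *Dmp1* (1.04 ± 0.21), *Col2a1* (-1.92 ± 0.43) and *Lyz2* (-4.28 ± 0.70). Both induced groups had all 12 osteoblast and all 12 chondrocyte markers called lower than in juvenile osteoblasts, and 1 of 4 haematopoietic markers tested called higher. Between the ages 8 of 12 osteoblast markers were higher in juvenile osteoblasts, with 3 called, and 1 of 12 chondrocyte markers was called lower. Only 2 haematopoietic markers were tested there, 1 of them higher and 1 called lower. *Myc* was at 39.8 to 52.2 CPM in the 8 control libraries, at 624 and 657 CPM in *c-Myc* and at 639 and 747 CPM in *c-Myc* + *R172H* libraries, whereas gene counts give no check of the *R172H* label. *Xist* was above 100 CPM in 2 libraries, replicate 2 of *c-Myc* and replicate 2 of *c-Myc* + *R172H*. In bulk RNA, fewer cells of a type and less RNA per cell cannot be told apart. The part of these differences in the results below was not tested.

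*Trp53* had overlapping levels in the 2 ages and higher levels in both induced groups, as the plot of CPM in each library shows. It was at 23.3, 26.1, 22.9 and 20.0 CPM in juvenile, 20.7, 20.9, 23.3 and 21.8 CPM in adult, 65.2 and 55.9 CPM in *c-Myc*, and 62.2 and 63.3 CPM in *c-Myc* + *R172H* osteoblasts. The 2 control groups overlapped, the 2 induced groups overlapped, and every induced library was above every control library. *Trp53* was 2.58-fold higher in *c-Myc* than in juvenile osteoblasts (log2 fold change 1.37 ± 0.13, SE; adjusted p = 2.02e-06), and 2.73-fold higher in *c-Myc* + *R172H* than in juvenile osteoblasts (1.45 ± 0.13; adjusted p = 1.01e-06). Between *c-Myc* + *R172H* and *c-Myc* osteoblasts it differed by 0.080 ± 0.14 on the log2 scale (adjusted p = 1), and between juvenile and adult osteoblasts by 0.083 ± 0.16 (adjusted p = 0.843). In both of these comparisons the difference was smaller than its SE.

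**Figure D1:**
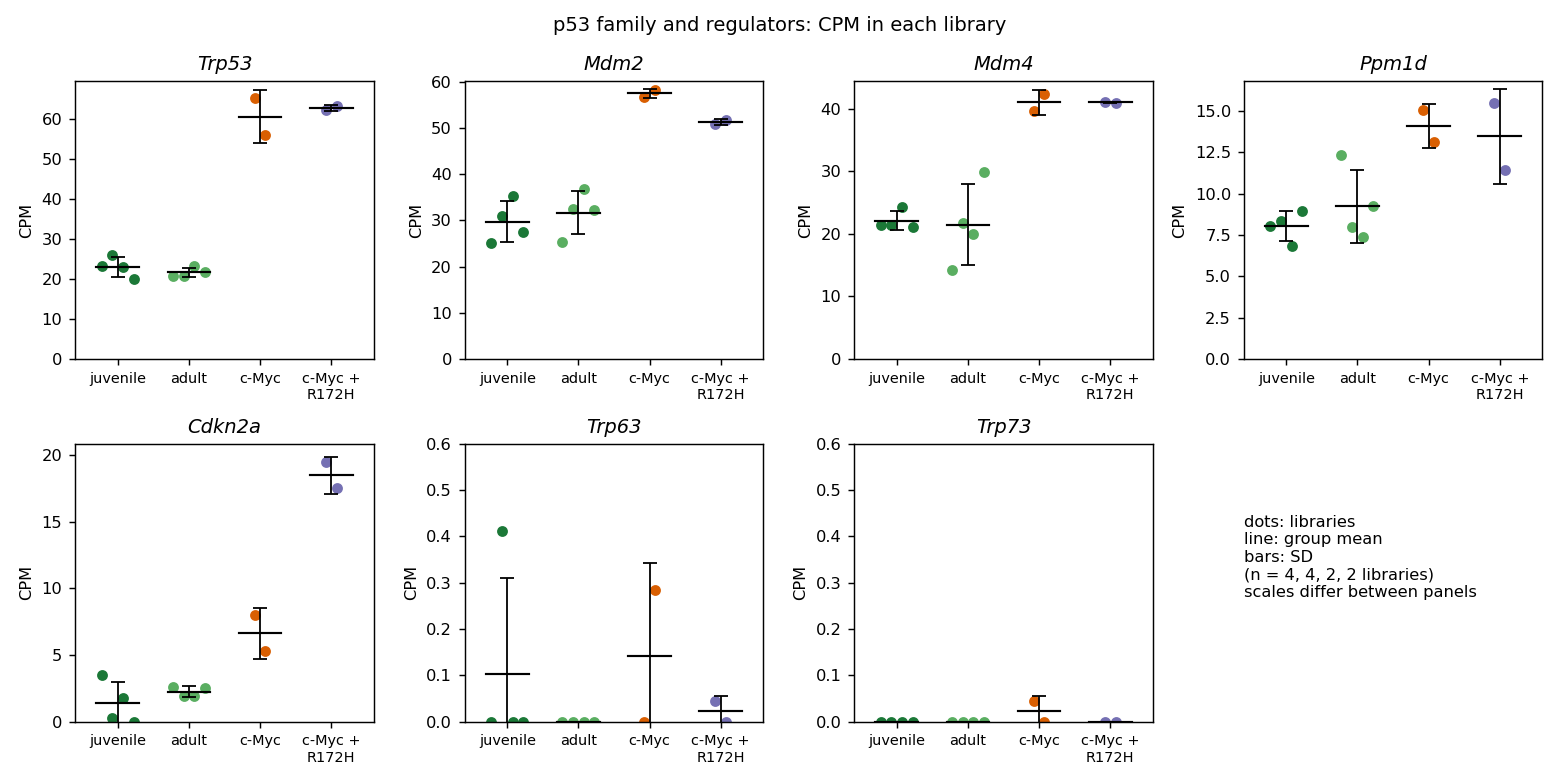
CPM (vertical axis, linear, a different scale in each panel) of the 7 genes in juvenile, adult, *c-Myc* and *c-Myc* + *R172H* libraries; dots are libraries, lines group means and bars SD. *Trp53*, *Mdm2*, *Mdm4* and *Ppm1d* lie higher in both induced groups than in both control groups except for *Ppm1d* in 1 adult library at 12.3 CPM, *Cdkn2a* is highest in *c-Myc* + *R172H* at 17.5 and 19.4 CPM, and *Trp63* and *Trp73* are near 0.

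*Trp63*, a regulator of stratified epithelia, and *Trp73*, which has roles in multiciliated cells and neural development, were close to undetected. *Trp63* had 4 counts in juvenile replicate 2, 5 counts in *c-Myc* replicate 2, 1 count in *c-Myc* + *R172H* replicate 1 and 0 in the other libraries, so 2 of the 12 libraries were above the detection limit. *Trp73* had 1 count, in *c-Myc* replicate 1. Neither gene passed the filter on low counts, so neither enters the counts of tested members, and no fold change is given. In an exact two-sided permutation test of mean CPM, *Trp63* gave p = 1 in all 4 comparisons, and *Trp73* gave p = 0.333 for *c-Myc* against juvenile osteoblasts, where 2 against 4 libraries cannot go below 0.0667. With counts in so few libraries these p-values are set mostly by the group sizes. They show neither a difference nor its absence. Over the 12 libraries the p53 family was therefore represented by 6660 counts of *Trp53*, 10 of *Trp63* and 1 of *Trp73*.

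*Mdm2* also rose in both induced groups. Its levels were 25.1, 31.1, 35.3 and 27.4 CPM in juvenile, 25.4, 32.5, 36.7 and 32.2 CPM in adult, 56.8 and 58.2 CPM in *c-Myc*, and 50.9 and 51.8 CPM in *c-Myc* + *R172H* osteoblasts. The induced libraries were all above the control libraries, and both *c-Myc* + *R172H* libraries were below both *c-Myc* libraries. The rise over juvenile osteoblasts was 1.91-fold in *c-Myc* (0.93 ± 0.13; adjusted p = 7.2e-05) and 1.74-fold in *c-Myc* + *R172H* (0.80 ± 0.13; adjusted p = 0.00023). The difference between the induced groups was -0.13 ± 0.15 (adjusted p = 1), below its SE, and it turned to 0.078 when libraries were scaled by their total counts. Juvenile and adult osteoblasts differed by -0.10 ± 0.16 (adjusted p = 0.802).

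*Mdm4* was at 21.5, 21.5, 24.3 and 21.1 CPM in juvenile osteoblasts, at 14.3, 21.8, 20.0 and 29.8 CPM in adult, at 39.6 and 42.4 CPM in *c-Myc*, and at 41.1 and 40.9 CPM in *c-Myc* + *R172H* osteoblasts. The adult libraries spread the most and enclosed all 4 juvenile ones, and no induced library fell within the range of the controls. *Mdm4* rose 1.83-fold in *c-Myc* (0.87 ± 0.12; adjusted p = 6.95e-05) and 1.87-fold in *c-Myc* + *R172H* osteoblasts (0.90 ± 0.12; adjusted p = 4.59e-05). The induced groups differed by 0.030 ± 0.14 (adjusted p = 1) and the ages by 0.031 ± 0.20 (adjusted p = 0.965).

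*Ppm1d*, the least abundant of the feedback genes in CPM, was at 8.03, 8.36, 6.81 and 8.94 CPM in juvenile, 12.3, 8.01, 7.37 and 9.27 CPM in adult, 15.1 and 13.1 CPM in *c-Myc*, and 15.5 and 11.5 CPM in *c-Myc* + *R172H* osteoblasts. All 4 induced libraries were above the juvenile libraries, but the lower *c-Myc* + *R172H* library was below the highest adult one. *Ppm1d* rose 1.73-fold in *c-Myc* (0.79 ± 0.21; adjusted p = 0.00738) and 1.68-fold in *c-Myc* + *R172H* osteoblasts (0.75 ± 0.21; adjusted p = 0.00915) over juvenile osteoblasts. Each call was lost without 1 library. Without *c-Myc* replicate 1 the first was 0.69 with an adjusted p of 0.104, and without *c-Myc* + *R172H* replicate 1 the second was 0.50 with an adjusted p of 0.229. The induced groups differed by -0.037 ± 0.24 (adjusted p = 1) and the ages by -0.21 ± 0.26 (adjusted p = 0.726).

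*Cdkn2a* had the largest fold changes of the 5 genes tested and was the only one of them in which the *c-Myc* + *R172H* libraries stood above the *c-Myc* libraries. The counts were 38, 3, 13 and 0 in juvenile libraries, 26, 17, 15 and 24 in adult, 175 and 93 in *c-Myc*, and 425 and 353 in *c-Myc* + *R172H* libraries. In CPM these were 3.47, 0.309, 1.81 and 0 in juvenile, 2.63, 1.92, 1.94 and 2.56 in adult, 7.99 and 5.27 in *c-Myc*, and 19.4 and 17.5 in *c-Myc* + *R172H* osteoblasts. The juvenile libraries enclosed the adult ones, with 1 juvenile library at the detection limit and 1 without a count, and the 2 induced groups overlapped neither with the controls nor with each other. Which first exon the reads came from cannot be told from gene counts, so the values do not separate Arf from p16.

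*Cdkn2a* was 4.47-fold higher in *c-Myc* than in juvenile osteoblasts (2.16 ± 0.68; adjusted p = 0.0185) and 12.7-fold higher in *c-Myc* + *R172H* than in juvenile osteoblasts (3.66 ± 0.66; adjusted p = 0.000515). The first call was not kept by DESeq2 (2.21; adjusted p = 0.178), nor without *c-Myc* replicate 1 (1.84; 0.151) or replicate 2 (2.43; 0.0515), although the log2 fold change stayed of similar size, whereas the second was kept in all 18 alternatives (adjusted p up to 0.0156). Between the induced groups *Cdkn2a* was 2.84-fold higher in *c-Myc* + *R172H* osteoblasts (1.50 ± 0.70), a larger log2 fold change than that of 99.6% of the 12588 genes tested. This did not pass the edgeR test (adjusted p = 1) when the spread was shared with the juvenile libraries, where *Cdkn2a* ran from 0 to 3.47 CPM. An exact two-sided permutation test of mean CPM gave p = 0.333, the smallest that 2 against 2 libraries allow, so it could not decide. With the 4 induced libraries alone, where 2 per group tell little of the spread, the difference was 1.50 (edgeR adjusted p = 1.3e-07). Over all alternatives it lay between 1.21 and 1.81, the adjusted p between 1.3e-07 and 1, and 2 of the 17 alternatives that gave an adjusted p made the call. Juvenile and adult osteoblasts differed by -0.68 ± 0.83 (adjusted p = 0.724), less than the SE.

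Counted together, 5 of the 7 genes passed the filter in each comparison. Between juvenile and adult osteoblasts 0 of them were called at an adjusted p below 0.05, against 5.12% of the 11345 genes tested, 0 had an unadjusted p below 0.05 in edgeR, 0 were called in DESeq2, and 0 were without overlap between the groups, against 12.9% of genes. In *c-Myc* over juvenile osteoblasts all 5 were called higher, against 53.4% of genes called in either direction and 28.4% called higher. All 5 were above the juvenile libraries without overlap, against 35.7% of genes, 2 also had a log2 fold change of at least 1 (*Trp53* and *Cdkn2a*), against 34.4% past that size in either direction, and the median of the 5 log2 fold changes was 0.93 beside 0.037 over all genes. In *c-Myc* + *R172H* over juvenile osteoblasts all 5 were called higher, against 56.7% called and 30.4% called higher. All 5 were again without overlap, against 36.5% of genes, 2 (*Trp53* and *Cdkn2a*) had a log2 fold change of at least 1, against 37.5% in either direction, and the median was 0.90 beside 0.076 over all genes. These comparisons share the juvenile libraries. Between *c-Myc* + *R172H* and *c-Myc* osteoblasts 0 of the 5 were called in edgeR, against 0.469% of genes, and 0 had an unadjusted p below 0.05. DESeq2 did not call *Trp53*, *Mdm2* or *Mdm4*, and gave no adjusted p for *Cdkn2a* (log2 fold change 1.49) or *Ppm1d*. Of the 5, 2 (*Mdm2* and *Cdkn2a*) did not overlap between the groups, against 45% of genes. The plot of fold changes shows these values with their SE.

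**Figure D2:**
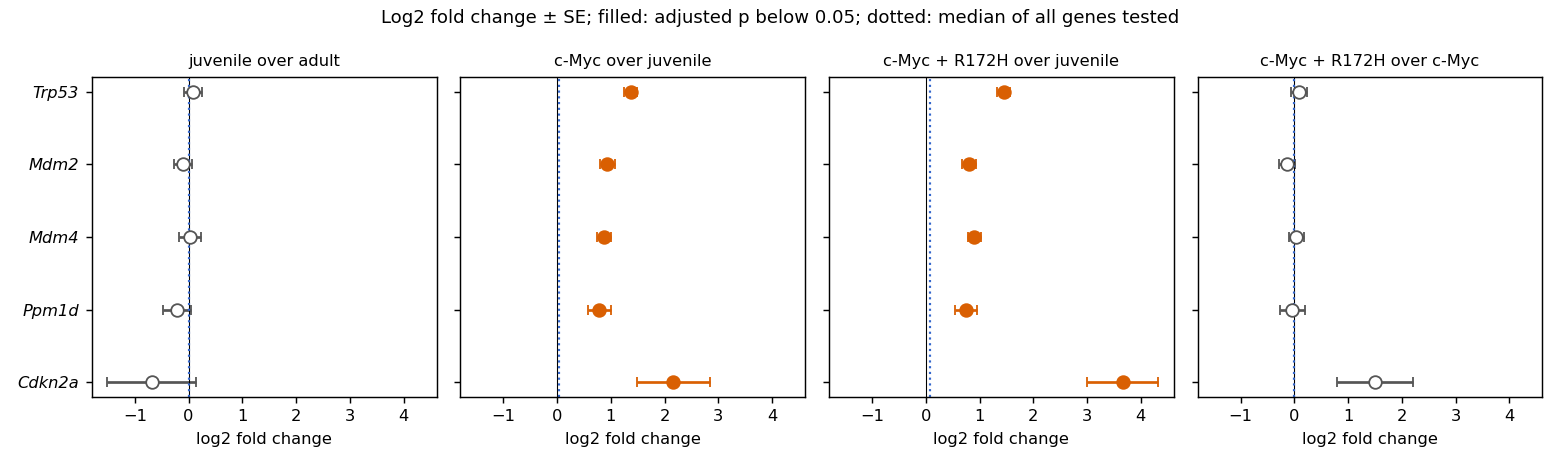
Log2 fold change (horizontal axis) of 5 genes in 4 comparisons, with SE as bars; filled points had an adjusted p below 0.05, and the dotted line is the median of all genes tested. All 5 genes are filled and to the right of 0 in both comparisons with juvenile osteoblasts, while *Cdkn2a* at 1.50 is the one point far from 0 between the induced groups.

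*Col1a1*, *Col1a2* and *Gm26917* took 57.1 to 65.3% of the counts in juvenile and 35.2 to 37.6% in *c-Myc* + *R172H* libraries, and fold changes depended on the scaling. *Gm26917* alone moved the other way, from 7.19 to 8.46% of the counts in juvenile to 28.2 to 29.4% in *c-Myc* and 26.5 to 28.7% in *c-Myc* + *R172H* libraries. When library totals replaced the TMM factors, the median of all genes moved from 0.037 to 0.87 in *c-Myc* over juvenile, from 0.076 to 1.12 in *c-Myc* + *R172H* over juvenile, from 0.00093 to -0.24 in juvenile over adult and from -0.0028 to 0.21 in *c-Myc* + *R172H* over *c-Myc* osteoblasts. The share of called genes that were higher moved from 53.2 to 85.9%, from 53.6 to 86.8% and from 36.8 to 6.26% in the first 3 of these. The 5 genes stayed higher in both induced groups than in juvenile osteoblasts under every scaling tried.

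Ratios between genes within a library do not depend on the scaling. Counts were divided by the length of all exons of the gene, a choice that sets the level of a ratio but not its change between groups. *Mdm2* over *Trp53* was 1.03 ± 0.16 (SD, n = 4) in juvenile, 1.16 ± 0.13 (n = 4) in adult, 0.760 ± 0.096 (n = 2) in *c-Myc* and 0.651 ± 0.0004 (n = 2) in *c-Myc* + *R172H* osteoblasts. All 4 induced libraries were below the 8 control libraries. *Mdm4* over *Trp53* was 0.264 ± 0.031, 0.270 ± 0.079, 0.187 ± 0.029 and 0.179 ± 0.0028 in the same order, and *Ppm1d* over *Trp53* was 0.449 ± 0.084, 0.548 ± 0.15, 0.297 ± 0.0037 and 0.274 ± 0.062. *Cdkn2a* over *Trp53* was 0.207 ± 0.24, 0.362 ± 0.071, 0.374 ± 0.069 and 1.02 ± 0.088, so the *c-Myc* libraries lay within the range of the juvenile ones and only the *c-Myc* + *R172H* libraries stood apart.

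**Figure D3:**
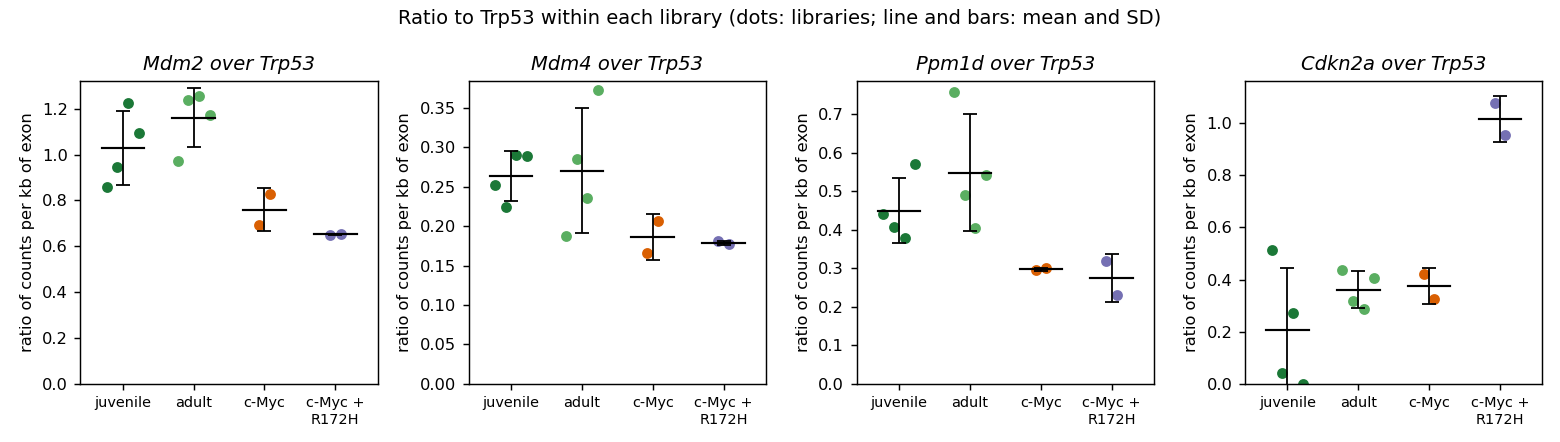
Ratio of counts per kb of exon to that of *Trp53* (vertical axis, from 0) in each library of the 4 groups; dots are libraries, lines means and bars SD. The means of *Mdm2*, *Mdm4* and *Ppm1d* relative to *Trp53* are lower in both induced groups, with 1 adult library of *Mdm4* at 0.188 inside the induced range, and *Cdkn2a* reaches 0.955 and 1.08 in *c-Myc* + *R172H* libraries.

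With 24 such ratio tests the exact two-sided permutation test, whose smallest possible p is 0.0667 for 2 against 4 libraries, gave 0.0667 for *Mdm4* over *Trp53* in both induced groups against juvenile osteoblasts and 0.133 for *Mdm2* over *Trp53*, with Benjamini-Hochberg adjusted p of 0.32 and 0.356. The smallest p of this test, with 2 against 4 libraries, is above 0.05, so it could not call them. *Mdm2* over *Mdm4* was 3.91 ± 0.39 in juvenile, 4.50 ± 1.0 in adult, 4.09 ± 0.13 in *c-Myc* and 3.65 ± 0.058 in *c-Myc* + *R172H* osteoblasts, and the juvenile range held both induced groups.

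Compared per length, the order of the levels changed with the group. In juvenile osteoblasts the mean CPM per kb of exon was 5.85 ± 0.88 (SD, n = 4) for *Mdm2*, 5.71 ± 0.62 for *Trp53*, 2.53 ± 0.28 for *Ppm1d*, 1.49 ± 0.10 for *Mdm4* and 1.19 ± 1.4 for *Cdkn2a*, and neither the first 2 nor the last 2 differed beyond their spread. In *c-Myc* + *R172H* osteoblasts it was 15.8 ± 1.2 (n = 2) for *Cdkn2a*, 15.5 ± 0.20 for *Trp53*, 10.1 ± 0.13 for *Mdm2*, 4.25 ± 0.90 for *Ppm1d* and 2.77 ± 0.0074 for *Mdm4*, so *Cdkn2a* went from the last place to that of *Trp53*. The order depends on the length used. With the longest coding transcript, *Trp53* led *Mdm2* in juvenile osteoblasts (12.4 ± 1.3 against 9.45 ± 1.4 CPM per kb) and led *Cdkn2a* in *c-Myc* + *R172H* osteoblasts (33.6 ± 0.43 against 20.6 ± 1.5).

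The genes next to 2 members were read as neighbours. *Wrap53*, which encodes a telomerase cofactor, runs in the opposite direction from *Trp53* with 103 bases between the gene bodies. It was at 3.74, 4.44, 6.26 and 5.71 CPM in juvenile, 3.04, 1.13, 2.20 and 1.92 CPM in adult, 9.72 and 9.69 CPM in *c-Myc*, and 7.41 and 8.73 CPM in *c-Myc* + *R172H* osteoblasts. Unlike *Trp53*, its juvenile and adult libraries did not overlap (1.26 ± 0.44; adjusted p = 0.102), and *Wrap53* over *Trp53* was 0.436 ± 0.13 in juvenile and 0.188 ± 0.075 in adult osteoblasts, with an exact permutation p of 0.0286, the smallest that 4 against 4 libraries allow, and an adjusted p of 0.32. It rose with *Trp53* in *c-Myc* osteoblasts (0.94 ± 0.27; adjusted p = 0.0102). *Cdkn2b*, which encodes the cyclin D kinase inhibitor p15 beside *Cdkn2a*, stayed between 0.373 and 2.56 CPM in all 12 libraries and differed by 0.56 ± 0.67 (adjusted p = 0.511) in *c-Myc* and by 0.65 ± 0.67 (adjusted p = 0.434) in *c-Myc* + *R172H* over juvenile osteoblasts.

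Genes that act on p53 or carry out its programme were counted by lists. Between juvenile and adult osteoblasts 5.12% of all genes were called. Of the 30 target genes tested, 3 were called higher and 1 lower, and 9 had an unadjusted p below 0.05 in edgeR. So did 2 kinases and 2 acetylation and methylation enzymes. Among the 30 target genes tested, *Pmaip1*, encoding the BH3-only protein Noxa (1.81 ± 0.42; adjusted p = 0.0223), *Plk2* (1.15 ± 0.18; 0.00166) and *Cdkn1a*, encoding the cell cycle inhibitor p21 (0.49 ± 0.14; 0.0476), were higher in juvenile osteoblasts, and the death receptor gene *Tnfrsf10b* was lower (-1.97 ± 0.45; 0.0173). *Cdkn1a* was at 164 to 208 CPM in juvenile and 109 to 170 CPM in adult osteoblasts, which overlapped, *Ccng1* differed by -0.43 ± 0.17 (0.148) and *Phlda3* by 0.022 ± 0.22 (0.979). The p53 kinase gene *Hipk2* was higher (0.66 ± 0.15; 0.0205) and was the one call among 8 kinases, and the methyltransferase gene *Setd7* was lower (-0.42 ± 0.11; 0.0397) and was the one call among 9 acetylation and methylation enzymes. None was called among 11 ligases and deubiquitinases, 8 binding partners, 8 MDM2-binding ribosomal and nucleolar proteins and 17 regulators of the *Cdkn2a* locus, of which 1, 0, 1 and 2 had an unadjusted p below 0.05 in edgeR. These age calls depended on the scaling. With library totals, 1 target gene was called higher and 2 lower, 0 kinases were called, and 1 MDM2-binding gene was called lower.

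In *c-Myc* over juvenile osteoblasts all 8 genes for ribosomal and nucleolar proteins that bind MDM2 rose, with a median of 0.80 and the largest rises in the nucleolar genes *Npm1* (2.60 ± 0.13; adjusted p = 2.06e-08) and *Ncl* (2.53 ± 0.13; 2.25e-08). Over all genes 28.4% were called higher and 53.4% in either direction, with a median of 0.037, and the counts of the other lists are to be read against these shares. Of 9 kinases 5 rose and 2 fell, with a median of 0.56. The checkpoint kinase genes *Chek2* (3.25 ± 0.60; 0.000582) and *Chek1* (3.14 ± 0.57; 0.000536) rose the most, and *Hipk2* (-1.07 ± 0.16; 0.00011) and *Dyrk2* (-0.43 ± 0.11; 0.00562) fell. Of 11 ligases and deubiquitinases 4 rose and 2 fell, led by the deubiquitinase genes *Usp10* (1.80 ± 0.14; 3.71e-07) and *Usp7* (0.86 ± 0.13; 0.000112), with *Mkrn1* (-0.53 ± 0.16; 0.0137) and *Trip12* (-0.32 ± 0.10; 0.015) as the lower ones. Of 9 acetylation and methylation enzymes 5 rose and 1 fell, among them the methyltransferase genes *Prmt5* (2.06 ± 0.19; 1.9e-06) and *Kmt5a* (1.30 ± 0.20; 0.000168) and the acetyltransferase gene *Crebbp* (-0.26 ± 0.10; 0.045). Of 8 binding partners 3 rose and 0 fell, among them *Trp53bp1* at 0.66 ± 0.13 (0.00112).

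Among 17 regulators of the *Cdkn2a* locus 8 rose and 3 fell in *c-Myc* over juvenile osteoblasts, where 53.4% of all genes were called. *E2f1*, an activator of Arf (2.08 ± 0.31; adjusted p = 9.89e-05), and *Suz12*, a subunit of the Polycomb complex that silences the locus (1.53 ± 0.17; 1.03e-05), rose the most. *Tbx2* (-2.64 ± 0.21; 6.31e-07) and *Twist1* (-1.83 ± 0.28; 0.000151), both known as repressors of the locus, fell the most. Activators and repressors were thus found among the higher genes, and the list's median was 0.27.

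Of the 32 p53 target genes 16 rose and 4 fell in *c-Myc* over juvenile osteoblasts, where 28.4% of all genes were called higher and 53.4% in either direction. The median of the list was 0.77 beside 0.037 over all genes. The targets *Psrc1* (4.10 ± 0.26; adjusted p = 9.74e-08) and *Gtse1* (3.63 ± 0.29; 6.41e-07), which encode microtubule-binding proteins of dividing cells, rose the most, and *Pmaip1* (-1.68 ± 0.29; 0.000304) and *Ddit4l* (-1.64 ± 0.46; 0.00884) fell the most. *Phlda3*, encoding an inhibitor of Akt (1.49 ± 0.19; 2.54e-05), and *Ccng1*, encoding cyclin G1 (1.13 ± 0.17; 0.000127), also rose, while *Cdkn1a* differed by 0.010 ± 0.10 (0.939). With library totals, 24 target genes were called higher and 2 lower.

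In *c-Myc* + *R172H* over juvenile osteoblasts, which uses the same juvenile libraries, 8 of 8 MDM2-binding genes (again led by *Npm1*, 2.66 ± 0.13, and *Ncl*, 2.58 ± 0.13), 5 of 9 kinases, 4 of 11 ligases and deubiquitinases, 5 of 9 acetylation and methylation enzymes, 3 of 8 binding partners and 8 of 17 locus regulators rose, and 0, 2, 4, 0, 0 and 2 fell. Among the largest rises were those of *Chek1* (3.62 ± 0.57) and *Chek2* (3.31 ± 0.60), *Usp10* (1.85 ± 0.14) and the ligase gene *Huwe1* (0.96 ± 0.12), *Prmt5* (1.95 ± 0.19) and *Kmt5a* (1.36 ± 0.20), the binding partner gene *Trp53bp1* (0.70 ± 0.13), and *E2f1* (1.83 ± 0.31) and *Suz12* (1.64 ± 0.17), in the order of these lists. The largest falls were those of *Hipk2* (-1.13 ± 0.16) and *Dyrk2* (-0.43 ± 0.11), *Mkrn1* (-0.63 ± 0.16) and *Trim24* (-0.56 ± 0.19), and *Tbx2* (-3.17 ± 0.22) and *Twist1* (-1.90 ± 0.28). Of the 32 targets 16 rose and 5 fell, with a median of 0.57 beside 0.076 over all genes, of which 30.4% were called higher and 56.7% in either direction. *Psrc1* (3.80 ± 0.26) and *Eda2r* (3.31 ± 0.42), a receptor gene, rose the most, and *Pmaip1* (-2.50 ± 0.30) and *Epha2* (-1.76 ± 0.12) fell the most. *Phlda3* (1.03 ± 0.19; adjusted p = 0.000485) and *Ccng1* (0.66 ± 0.17; 0.00584) rose and *Cdkn1a* fell (-0.44 ± 0.10; 0.00262), with 137 and 142 CPM against 164 to 208 CPM in juvenile osteoblasts.

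Between *c-Myc* + *R172H* and *c-Myc* osteoblasts 0 of the genes in the 7 lists were called in edgeR, against 0.469% of all genes. An unadjusted p below 0.05 in edgeR was found for 6 of the 32 target genes. It was also found for 8 of the 12 osteoblast and 2 of the 12 chondrocyte markers. The share of all genes below that p is not given here. The values of the targets lay mostly on the lower side, with a median of -0.21 beside -0.0028 over all genes and 5 of 32 above 0, although with library totals, where the median of all genes was 0.21, 16 of 32 were above 0 and the list was again 0.21 below that median (-0.21). In 22 of the 32 both *c-Myc* + *R172H* libraries were below both *c-Myc* libraries, against 27.5% of all genes. *Cdkn1a* was at 137 and 142 CPM against 191 and 197 CPM (-0.45 ± 0.12; adjusted p = 0.171), *Ccng1* at 66.2 and 61.5 CPM against 94.8 and 85.3 CPM (-0.47 ± 0.20; 0.918), and *Phlda3* at 34.7 and 38.6 CPM against 51.2 and 51.6 CPM (-0.46 ± 0.21; 1). *Mdm2* at -0.13 ± 0.15 and *Ppm1d* at -0.037 ± 0.24 were closer to 0 than these, but the list median of -0.21 lay within the SE of each. For *Mdm2* both *c-Myc* + *R172H* libraries were also below both *c-Myc* libraries, as in 22 of the targets. DESeq2 called 2 of the 32 lower among 208 genes called in all, and the fit with the replicate number as a block called 5 among 326. The medians of the other 6 lists were between -0.0091 and 0.086, and *Col1a1* was the one marker of the 4 cell type lists to be called (-1.05 ± 0.19; 0.0307). The markers lay on the same side as the targets. The osteoblast markers had a median of -0.66, with 1 of 12 above 0 and 10 below without overlap, and the chondrocyte markers one of -1.31, with 1 of 12 above 0 and 9 below without overlap. DESeq2 called 4 and 2 of them lower and the replicate block 6 and 2, and their part in the values of the targets was not tested.

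**Figure D4:**
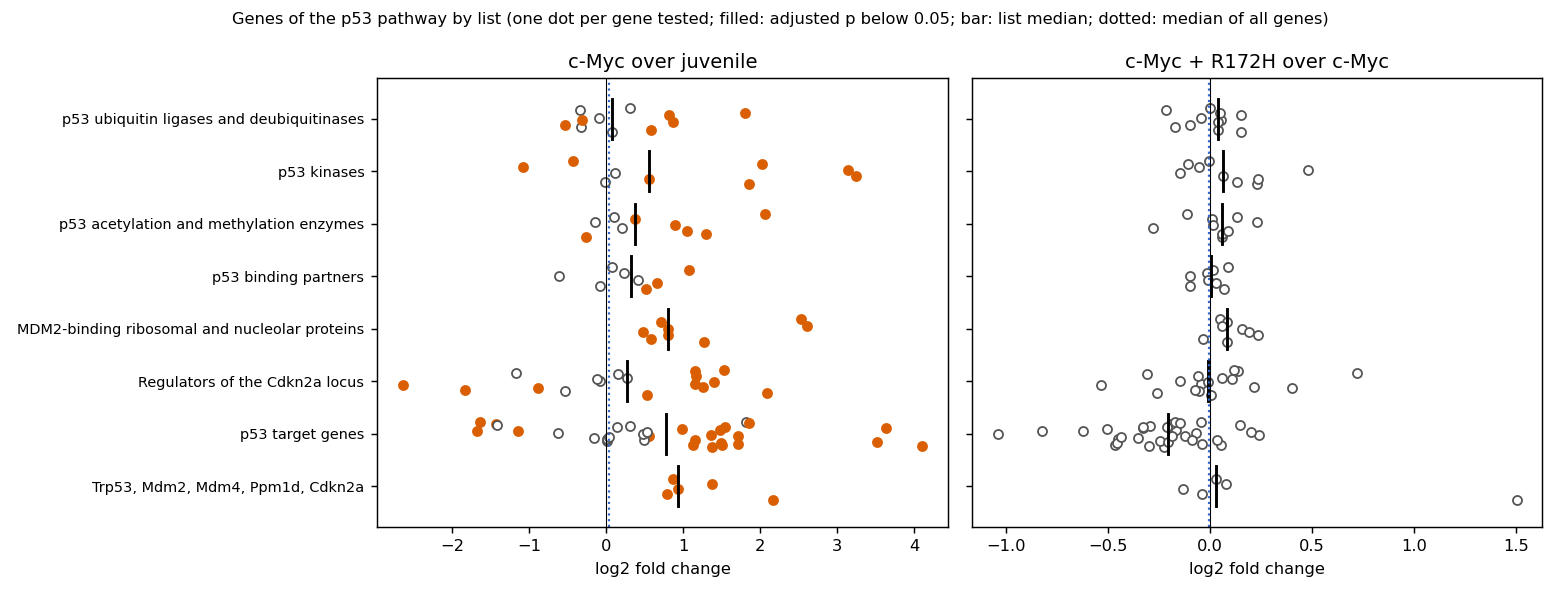
Log2 fold change (horizontal axis, a different range in each panel) of the genes of 7 p53 pathway lists and of the 5 tested p53 family and regulator genes; each dot is a gene, filled where the adjusted p was below 0.05, bars are list medians and the dotted line is the median of all genes. On the left the MDM2-binding list and most p53 targets lie above 0, and on the right no gene is filled, the targets have a median of -0.21 and *Cdkn2a* lies alone at 1.50.

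The genes whose profile over the 12 libraries was closest to each member were found by the root mean square difference of centred log2 CPM among 13005 genes. For *Trp53* they were *Nup107* (0.0772), *Cad* (0.109) and *Rpl36* (0.112), beside a median of 0.876 over all genes. Those close to *Mdm2* included *Ncln* (0.137) and *Agap3* (0.141). They were, for *Mdm4*, *Tango6* (0.155), *Taf1c* (0.159) and *Usp19* (0.161), and, for *Ppm1d*, *Ptpa* (0.159), *Arpin* (0.164) and *Ndufc2* (0.164). *Cdkn2a* had no close match, its nearest genes being *Mrm3* (0.750), *Fanci* (0.774) and *Znrd2* (0.809) beside a median of 1.92. Its own SD over the 12 libraries was 1.98 on this log2 scale, against 0.403 to 0.726 for the other 4 genes.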

How the data were processed

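RNA from 12 libraries was made into directional libraries and sequenced single-end. Per the labels and the methods, the authors used cutadapt 4.6 for trimming, STAR 2.7.11a for alignment to mm10 and HTSeq 2.0.5 for counting of unique alignments, and deposited raw counts of 32288 genes without normalization. The strand setting is not given in the sources used here.

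Groups were read from titles. Genes were tested in edgeR 4.0.16 (R 4.3.3; TMM factors, filterByExpr, robust quasi-likelihood F test) with Benjamini-Hochberg adjustment over all genes tested and calls at 0.05. Age was fitted on 8 libraries and induction on 8 (juvenile and both induced groups). The SE was taken as |log2 fold change| over the root of F. The number of mice in a library of the induced groups is not given in the sources used here. *Xist* was above 100 CPM in 1 of the 2 libraries of each, so these 2 do not hold the same mice. Replicate counts differed beyond sampling noise in all pairs (chi-square over its degrees of freedom 5.75 to 147). The procedure was tested on simulated data.

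The members, lists and tests were chosen with earlier results of these data known. Named in each comparison were the 7 genes, the 2 called genes of each list with the largest rise and the 2 with the largest fall, *Cdkn1a*, *Ccng1* and *Phlda3*, and for each member the 3 genes of most similar profile; a few that this rule names are not reported here. Gene models are from GENCODE for GRCm38. Alternatives were other normalizations, filters, fold limits and sets of libraries, a replicate block, DESeq2 1.42.0 and leaving out each library.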

Additional observations from a re-analysis of the deposited data

Results flagged for a closer look

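In the 4 juvenile and in the 4 adult libraries the highest or lowest value of each gene was set against the others as a share of the group's range and compared with Dixon's critical value, which chance alone passes in a small share of groups. It was passed by *Mdm4* in juvenile osteoblasts (0.893), where replicate 3 at 24.3 CPM was above the other libraries at 21.1 to 21.5 CPM, and by *Trp63* in juvenile osteoblasts (1), where replicate 2 had 4 counts and the others 0. Where all other libraries are at 0 this share is 1 for any count, so it tells nothing about *Trp63*. The distances of both genes are small in absolute terms, and leaving out juvenile replicate 3 gave *Mdm4* a log2 difference of -0.016 between juvenile and adult osteoblasts (edgeR adjusted p = 0.982).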

How the results depend on the processing

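A minimum size of 1 for the log2 fold change kept 265, 4330, 32 and 4724 genes in juvenile over adult, *c-Myc* over juvenile, *c-Myc* + *R172H* over *c-Myc* and *c-Myc* + *R172H* over juvenile osteoblasts, and 2 of the 5 members (*Trp53* and *Cdkn2a*) in each comparison with juvenile osteoblasts. Without a filter 977 genes were called between the ages and 222 between the induced groups, with 1 member (*Cdkn2a*) in the latter, but the prior degrees of freedom of these fits were 604.6 and infinite. All 12 libraries in one fit gave 1094 and 22, library totals 12 between the induced groups, DESeq2 940 and 208, and the libraries of both induced groups alone 629, with 1 member. The labels do not say that replicate numbers pair the samples. Correlations of the deviations of samples with the same number were between -0.052 and 0.037 for juvenile with other groups and 0.14 for the 2 induced groups, where 2 pairs share 1 value and *Xist* was above 100 CPM in replicate 2 of both, so that number and *Xist* cannot be told apart there. With a replicate block 326 genes were called between the induced groups, 434 between the ages, and 7684 and 7998 in the others, and the same 0, 5, 0 and 5 members were called.

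Leaving out 1 library gave 284 to 885 genes between the ages, 4774 to 7098 in *c-Myc* over juvenile, 8 to 87 between the induced groups and 5167 to 7474 in *c-Myc* + *R172H* over juvenile osteoblasts, and 3 to 5 members in *c-Myc* and 4 to 5 in *c-Myc* + *R172H* over juvenile osteoblasts (lowest without replicate 1 of the induced group). Where a group was left with 1 library, that library is assumed to vary like the other groups. Signs turned only for uncalled values. Between the ages these were *Mdm4* (-0.23) and *Trp53* (-0.15) with library totals, and *Mdm4* without juvenile replicate 3 (-0.016), adult replicate 1 (-0.12) or adult replicate 3 (-0.0023), in a range of -0.12 to 0.23 over the libraries left out. Between the induced groups they were *Mdm2* (0.078) and *Ppm1d* (0.17) with library totals, *Ppm1d* without *c-Myc* replicate 1 (0.035) or *c-Myc* + *R172H* replicate 2 (0.13; range -0.29 to 0.13), *Mdm4* without the same libraries (-0.049 and -0.0018; range -0.049 to 0.055) and *Trp53* without *c-Myc* replicate 2 (-0.052; range -0.052 to 0.16). The cause was not tested. The length of the longest coding transcript, chosen after seeing the data, gave *Mdm2* over *Trp53* ratios of 0.769, 0.866, 0.567 and 0.486 in the 4 groups. Depth limits *Cdkn2a* in controls and *Trp63* and *Trp73* everywhere.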
